A study of Mus musculus with 6 samples.

Results

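The 10 genes described here encode the subunits of the transcription factor NF-kB, the inhibitors that hold it in the cytoplasm and the kinase complex that releases it. They were taken from the deposited count table by symbol: Rela, Relb, Rel, Nfkb1 and Nfkb2 for the 5 subunits, Nfkbia, Nfkbib and Nfkbie for 3 IkB inhibitors, and Ikbkb and Ikbkg for 2 components of the IkB kinase, IKK. All 10 were found among the 54532 genes of the table, and all 10 passed the filter on low counts, which left 13350 genes. The libraries came from the TM3 line, an established line of mouse Leydig cells, the testosterone-producing cells of the testis. 3 control libraries, with the genotype given as WT and described as overexpression controls, stood against 3 libraries with the genotype given as A20 overexpression. The vector, the promoter driving A20, the species of the A20 sequence and whether the line was cloned are not given in the sources used here. Nor is it given whether the libraries of a group came from separate cultures, so p-values measure only the spread between these libraries, which may be technical.

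NF-kB acts as dimers of Rel proteins. Rela, Rel and Relb carry transactivation domains, whereas Nfkb1 and Nfkb2 are made as the precursors p105 and p100, which are processed to p50 and p52. In resting cells IkB proteins mask the dimers; after a stimulus such as TNF, IKK phosphorylates the IkB proteins, which are then ubiquitinated and degraded. Several of the genes for these proteins are NF-kB targets themselves, Nfkbia and Tnfaip3 being the classical examples of feedback. Tnfaip3 encodes A20, a ubiquitin-editing enzyme that restrains IKK activation. RNA levels do not show how much IkB protein is present or where the dimers are in the cell.

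Total counts ran from 13841287 to 16917979 per library. Tnfaip3 stood at 30.9, 11.9 and 15.2 CPM (the count scaled to the library total) in control replicates 1, 2 and 3 and at 41.0, 33.7 and 43.6 CPM in the A20-overexpressing replicates, above each control. Its adjusted p in edgeR's quasi-likelihood test was 0.336 with all 6 libraries and 0.000256 without control replicate 1. That control library stood apart. Of 10 Leydig cell markers, the steroidogenic genes Cyp11a1 (851 CPM), Hsd3b1 (532 CPM) and Star (497 CPM) were high there, while in the other 5 libraries Cyp11a1 was at most 0.144 CPM, Star 2.52 to 4.54 CPM, and Hsd3b1, Lhcgr and Cyp17a1 had no count. The list summed to 2310 CPM in control replicate 1 and to 193 to 238 CPM in the others, where Scarb1 alone gave 170 to 210 CPM; Scarb1 was lower, at 106 CPM, in control replicate 1. Cyp11a1, Hsd3b1, Lhcgr and Cyp17a1, defining markers of the labelled cell type, were thus at or near 0 in 5 of the 6 libraries. In control replicate 1, Lhcgr and Cyp17a1 stood at only 7.36 and 1.56 CPM. Hsd17b3, also on the list, had no count in any library. Of 8 markers each, the Sertoli sum (235 CPM against 9.46 to 31.5) was mostly Clu at 221 CPM, the germ cell sum (28.4 against 9.21 to 13.7) differed mainly by Kit, at 15.5 CPM and no count elsewhere, and the endothelial sum (36.7 against 3.38 to 5.17) was mostly Cdh5 at 35.1 CPM. Sox9, Fshr, Dazl and Emcn had no count in any library. The macrophage sum went the other way, 6.97 CPM in control replicate 1 against 24.0 to 43.9 CPM, through Cd68 (3.71 against 19.3 to 38.7 CPM), while Ptprc, Adgre1 and C1qa had no count in any library. The part of these differences in the results below was not tested, and the test of each of the 10 genes is given with and without control replicate 1. In RNA from whole cultures, fewer cells expressing a gene and less RNA per cell cannot be told apart.

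No RNA of an NF-kB subunit, IkB inhibitor or IKK component passed the test between A20 overexpression and control. With all 6 libraries edgeR called 0 of the 10 genes at an adjusted p of 0.05, where it called 0.015% of all genes (0.00749% higher and 0.00749% lower), and without control replicate 1 it called 0 of 10, where it called 4.6% of 13658 genes (1.92% higher and 2.68% lower). The smallest adjusted p among the 10 was 0.455 with 6 libraries and 0.144 with 5. DESeq2 and limma-voom also called 0 of the 10 in both sets of libraries. DESeq2 called 1.38% of all genes with 6 libraries and 888 genes with 5. The counts for limma-voom were 0 of all genes with 6 libraries, so its 0 of 10 there is not particular to the members, and 641 with 5. An unadjusted p under 0.05 was found in edgeR for Relb and Nfkbia with 6 libraries, against 10.1% of all genes (6.29% in the lower direction of both), and for Relb with 5 libraries, against 21.6% (11.2% lower). The median size of the log2 fold change, without its sign, was 0.16 over the 10 genes and 0.24 over all genes with 6 libraries, and 0.12 and 0.25 with 5.

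**Figure D1:**
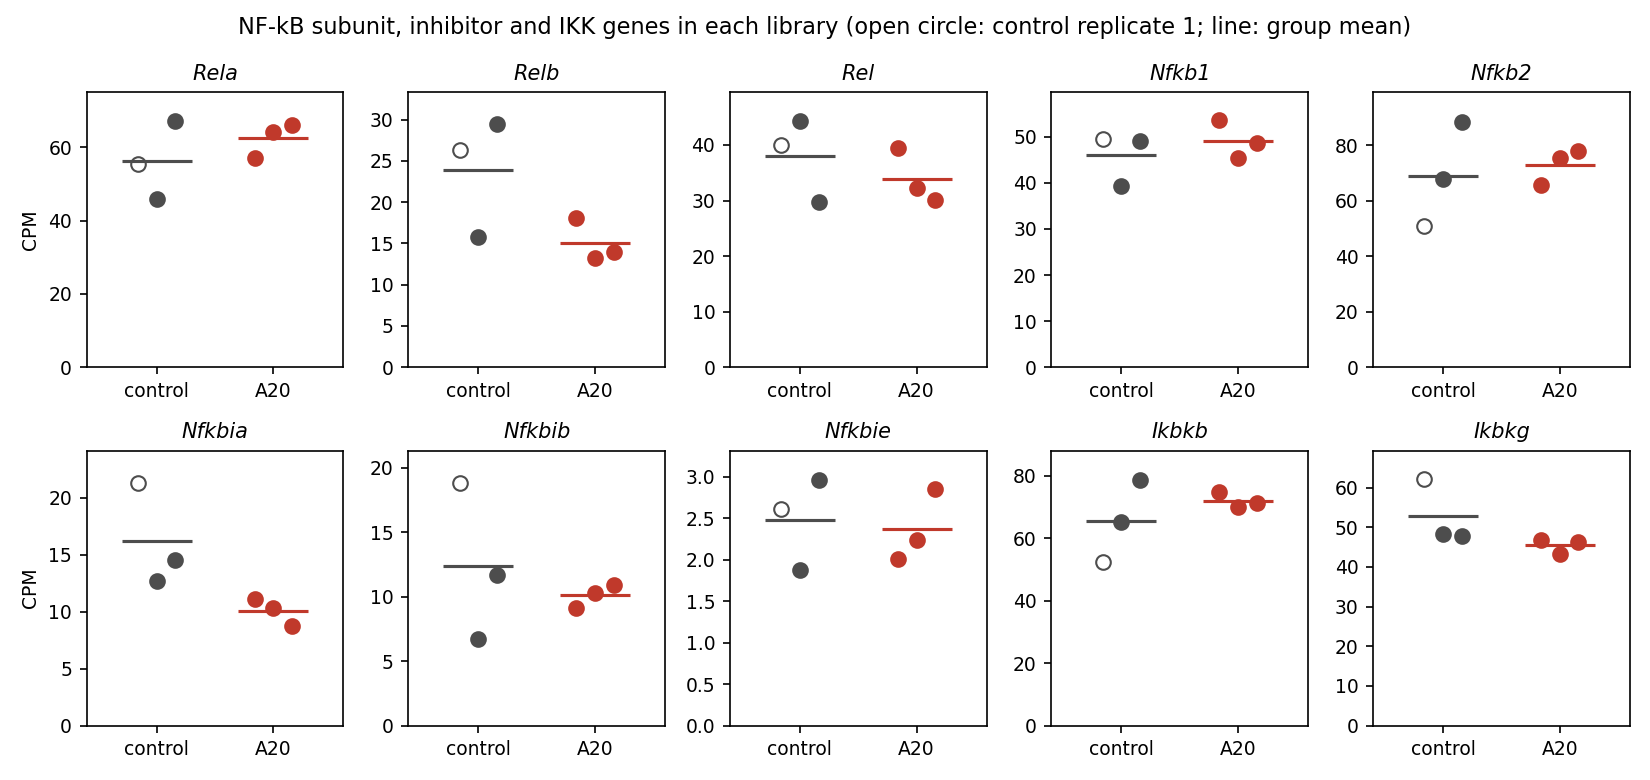
Level of each of the 10 genes in CPM (vertical axes, linear and starting at 0) in the 3 control and 3 A20-overexpressing libraries; each circle is a library, the open circle is control replicate 1 and the lines are group means. The groups do not overlap for Nfkbia and Ikbkg, with the A20-overexpressing libraries lower in both, and overlap for the other 8 genes.

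Nfkbia encodes IkB-alpha, the inhibitor that is rebuilt fastest after NF-kB activation. It stood at 21.3, 12.7 and 14.5 CPM in control replicates 1, 2 and 3 and at 11.1, 10.3 and 8.74 CPM in the A20-overexpressing replicates, with means of 16.2 CPM ± 4.54 (SD, n = 3) and 10 CPM ± 1.18 (SD, n = 3). Each A20-overexpressing library lay below each control. The log2 fold change was -0.66 ± 0.25 (SE), with a 95% interval from -1.22 to -0.10 and an adjusted p of 0.455 in edgeR (unadjusted p = 0.0264). Without control replicate 1, the highest of the libraries, it was -0.47 ± 0.23 (SE), with an interval from -0.94 to 0.01 and an adjusted p of 0.238. Nfkbia and Ikbkg were the 2 genes of 10 whose groups did not overlap, both with and without control replicate 1, where 16.9% of all genes did not overlap with 6 libraries (9.27% lower) and 37.9% with 5 (17.2% lower). A count of 2 of 10 is near the first of these shares and below the other.

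Nfkbib encodes IkB-beta, which is degraded and rebuilt more slowly. It stood at 18.8, 6.69 and 11.7 CPM in the controls and at 9.16, 10.3 and 10.9 CPM with A20 overexpression. The A20-overexpressing libraries therefore lay between control replicates 2 and 3, and control replicate 1 lay above all. The log2 fold change was -0.25 ± 0.33 (SE, adjusted p = 0.835 in edgeR) with 6 libraries and 0.12 ± 0.26 (SE, adjusted p = 0.846) with 5, so that its sign rested on control replicate 1. Nfkbie, the gene of IkB-epsilon, was the least abundant of the 10, at 2.61, 1.88 and 2.96 CPM in control and 2.01, 2.24 and 2.85 CPM with A20 overexpression. These are 27 to 43 reads per library, and its log2 fold change of -0.06 had a 95% interval from -0.95 to 0.84 with 6 libraries, and the value without control replicate 1 was also -0.06, from -0.95 to 0.82. At this depth, changes of Nfkbie in either direction within these intervals remain compatible with the data.

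Among the subunits, Relb had the lowest ratio between the groups. Relb is the subunit of the non-canonical pathway, where it pairs with p52. It stood at 26.3, 15.8 and 29.5 CPM in the controls and at 18.1, 13.2 and 14 CPM with A20 overexpression. Control replicate 2 lay among the A20-overexpressing libraries, and the other controls lay above them. The log2 fold change was -0.64 ± 0.25 (SE, unadjusted p = 0.0346, adjusted p = 0.475 in edgeR) with 6 libraries and -0.61 ± 0.24 (SE, unadjusted p = 0.0195, adjusted p = 0.144) with 5. Its level was 1.87-fold higher in control replicate 3 than in control replicate 2, a wider gap than that between the group means, 23.8 and 15.1 CPM. With control replicates 1 and 2 both left out, the log2 fold change was -0.95 and the adjusted p 0.0151, in a fit where 3.51% of all genes were called and the lone control is assumed to vary like the other group. With control replicates 1 and 3 left out it was -0.14 (adjusted p = 0.74).

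Rela, the p65 subunit of the canonical pathway, was measured at 55.4, 45.9 and 67.2 CPM in the controls and at 57.2, 64.3 and 66.0 CPM with A20 overexpression. The A20-overexpressing libraries lay within the range of the controls. Its log2 fold change of 0.17 ± 0.17 (SE, adjusted p = 0.776 in edgeR) had a 95% interval from -0.22 to 0.55, and without control replicate 1 the value was 0.12, from -0.23 to 0.46. Rel, the gene of c-Rel, best known from lymphocytes, stood at 40.0, 44.3 and 29.7 CPM in the controls and at 39.4, 32.2 and 30.1 CPM with A20 overexpression. The spread between control replicates 2 and 3 spanned the A20-overexpressing libraries, and the log2 fold change was -0.16 ± 0.21 (SE, adjusted p = 0.832 in edgeR) with 6 libraries and -0.17 ± 0.19 (SE, adjusted p = 0.668) with 5.

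The groups also overlapped for both precursor genes. Nfkb1, which encodes p105 and p50, stood at 49.5, 39.4 and 49.0 CPM in the controls and at 53.6, 45.4 and 48.6 CPM with A20 overexpression, the narrowest range of the 10 genes when scaled by TMM (0.33 on the log2 scale). Its log2 fold change was 0.11 ± 0.15 (SE, adjusted p = 0.834 in edgeR), with a 95% interval from -0.23 to 0.45, and without control replicate 1 it was 0.12 ± 0.15 (SE, adjusted p = 0.697). Nfkb2, which encodes p100 and p52, stood at 51.1, 67.8 and 88.4 CPM in the controls and at 65.7, 75.3 and 78.1 CPM with A20 overexpression. Among the subunits it had the largest SD in CPM in the controls (18.7), and also the highest mean there (69.1). Control replicate 1 held the lowest and control replicate 3 the highest value of the 6 libraries. The log2 fold change was 0.08 ± 0.23 (SE, adjusted p = 0.932) with 6 libraries and -0.13 ± 0.15 (SE, adjusted p = 0.674) with 5.

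Neither IKK gene passed the test. Ikbkb, the catalytic subunit IKK-beta of the canonical pathway, stood at 52.5, 65.1 and 78.7 CPM in the controls and at 74.6, 69.8 and 71.3 CPM with A20 overexpression. Control replicate 1 was again lowest and control replicate 3 highest. The log2 fold change was 0.13 ± 0.20 (SE, adjusted p = 0.851 in edgeR) with 6 libraries and -0.03 ± 0.14 (SE, adjusted p = 0.924) with 5, the latter with a 95% interval from -0.33 to 0.27. Ikbkg encodes NEMO, the regulatory subunit that binds ubiquitin chains. It stood at 62.1, 48.4 and 47.9 CPM in the controls and at 46.9, 43.2 and 46.2 CPM with A20 overexpression. All A20-overexpressing libraries lay below the controls, by a margin of 47.9 against 46.9 CPM at the nearest pair. The log2 fold change was -0.20 ± 0.15 (SE, adjusted p = 0.669) with 6 libraries and -0.12 ± 0.15 (SE, adjusted p = 0.69) with 5.

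**Figure D2:**
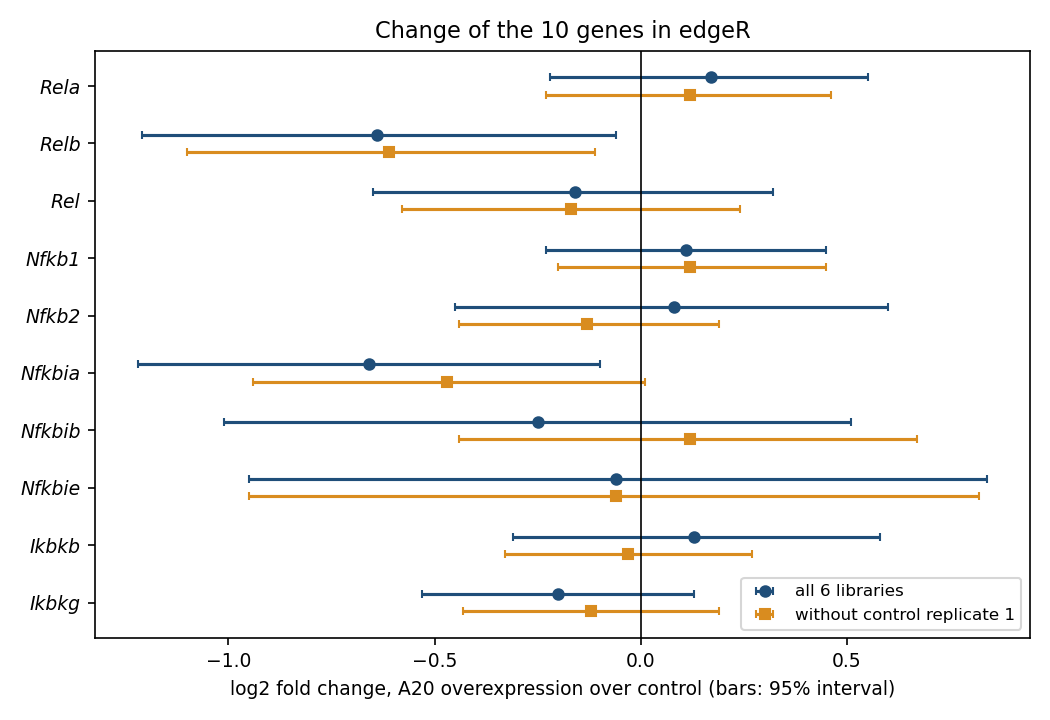
Log2 fold change of A20 overexpression over control for the 10 genes (horizontal axis) with 95% intervals from edgeR, with all 6 libraries (circles) and without control replicate 1 (squares). The intervals of Relb lie below 0 in both sets and that of Nfkbia with 6 libraries only (-1.22 to -0.10), and no gene passed after adjustment over all genes.

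The libraries of the control group differed more among themselves than those with A20 overexpression. The SD in CPM was larger in control than in A20 overexpression for 10 of the 10 genes, against 82.1% of all genes tested, and for 9 of 10 when control replicates 2 and 3 alone were used, against 57.4%. Spread was also described by chi-square per degree of freedom within the groups, where 1 is the spread that counting alone gives. For a given relative spread this measure grows with the number of reads. Nfkbie stood at 1.49 and the others between 7.94 for Nfkb1 and 41.8 for Nfkb2, with a median of 14.6 over all genes. Within the A20-overexpressing libraries Nfkbib (1.30), Ikbkb (1.35) and Ikbkg (1.33) were close to counting error, while Rel was at 11.5. The log2 ratio of control replicate 1 to the mean of the other 5 libraries had a median size of 0.36 over the 10 genes and 0.45 over all genes, and reached a size of 1 for 0 of the 10 and for 18.5% of all genes. The ratio was highest for Nfkbib (0.82) and Nfkbia (0.76) and lowest for Nfkb2 (-0.69) and Ikbkb (-0.60).

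Levels of different genes can be compared only per length, and for this family the order depends on which length is used. With the deposited gene length, CPM per kilobase (RPKM) averaged 21.8 ± 2.99 (SD, n = 6) for Rela and 21.6 ± 3.86 (SD, n = 6) for Nfkb2, followed by Nfkbia (8.14), Ikbkg (6.06), Nfkbib (5.2), Relb (5.01), Rel (4.81), Nfkb1 (3.94), Ikbkb (3.60) and Nfkbie (0.796). For 8 of the 10 genes the deposited length equals the union of all annotated exons in GENCODE M21, retained introns included. Rela (2716 against 3072 bases) and Nfkb2 (3289 against 4584) have deposited lengths shorter than the union. Their RPKM and that of the rest therefore use unlike lengths. The union is 19078 bases for Ikbkb and 12061 bases for Nfkb1, whereas their longest coding transcripts have 3977 and 4117 bases. With the longest coding transcript in its place, a choice made after the data were seen, Ikbkb stood at 17.3 RPKM ± 2.30 (SD, n = 6) next to Nfkb2 at 18.5, and Nfkb1 at 11.6 RPKM ± 1.16 (SD, n = 6) above Relb (8.81), Nfkbia (8.31), Ikbkg (7.02), Nfkbib (5.47), Rel (4.81) and Nfkbie (0.995). By the mean, Rela was highest and Nfkbie lowest with either length. For Rela both lengths are 2716 bases, so its own value could not change. With the deposited length Rela was above Nfkb2 by only 1.02-fold, in 4 of 6 libraries. With the longest coding transcript it was above Nfkb2 by 1.19-fold, in 5 of 6.

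**Figure D3:**
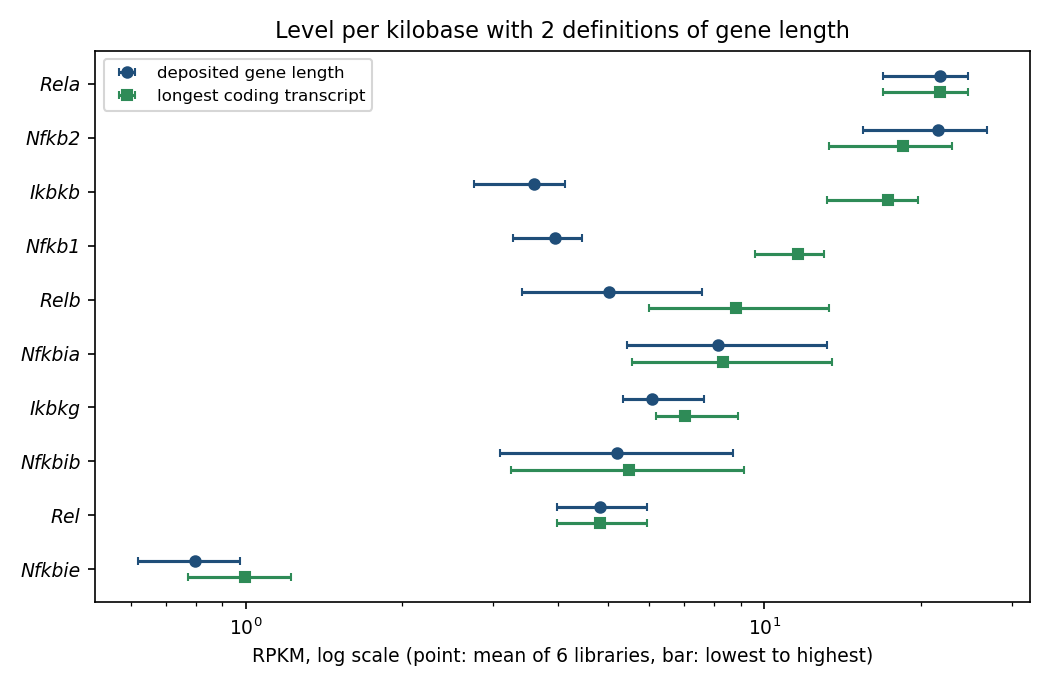
Level of each gene per kilobase (RPKM, log axis), with the deposited gene length (circles) and the length of the longest coding transcript (squares); points are means of the 6 libraries and bars run from the lowest to the highest library. Ikbkb moves from 3.60 to 17.3 RPKM and Nfkb1 from 3.94 to 11.6 RPKM with the change of length. Rela, whose lengths are the same by either definition, stays at 21.8 RPKM.

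Neighbours in this order were compared in the same 6 libraries that set the order. With the deposited length, Nfkb2 was above Nfkbia in 6 of 6 libraries, 2.73-fold, and Ikbkb above Nfkbie in 6 of 6, 4.55-fold; each had p = 0.0312 in an exact two-sided sign-flip permutation test, the smallest that 6 libraries allow, and an adjusted p of 0.141 over the 9 neighbouring pairs in this permutation test. The other 7 pairs held their order in 2 to 5 of 6 libraries. With the longest coding transcript, the order held in 6 of 6 libraries for Ikbkb above Nfkb1 (1.49-fold) and for Rel above Nfkbie (4.85-fold), and no pair passed after adjustment. A pair could pass only if most of the 9 pairs reached the smallest p. The adjusted values therefore cannot decide whether single neighbours differ.

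The make-up of the Rel family was described by the share of each gene in the summed RPKM of the 5 subunits, with the deposited length. Rela made up 39.1%, 33.3% and 36.8% in the controls and 38.0%, 40.8% and 40.7% with A20 overexpression, and Nfkb2 made up 29.8%, 40.6% and 40.0% against 36.1%, 39.4% and 39.8%. Rela and Nfkb2 were thus the most abundant subunit RNAs in each library by this measure, in which only their lengths are shorter than the exon union. With the longest coding transcript they also led in each library. The margin was then smallest in control replicate 1, where Nfkb2 made up 21.1%, Nfkb1 19.1% and Relb 18.9%. Relb took 13.0%, 7.98% and 11.3% in the controls and 8.40%, 5.87% and 6.03% with A20 overexpression; its share overlapped between the groups through control replicate 2 and A20-overexpressing replicate 1. The share of Nfkb1 depended on the length used, at 6.04% to 8.01% over the libraries with the deposited length and 15.5% to 20.1% with the longest coding transcript.

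Relative to Rela, Nfkbia was lower in each A20-overexpressing library. The ratio of Nfkbia to Rela in RPKM was 0.648, 0.466 and 0.365 in the controls and 0.326, 0.272 and 0.224 with A20 overexpression, without overlap, and the longest coding transcript gave 0.372 to 0.661 and 0.228 to 0.332. Nfkbia alone did not overlap either, like 16.9% of all genes with 6 libraries, so this ratio is not a separate result. The share of gene ratios without overlap was not computed. The ratio of the 3 IkB genes together to the 5 subunits was 0.436, 0.228 and 0.229 in the controls and 0.212, 0.206 and 0.191 with A20 overexpression. Control replicate 1 alone had a ratio far from the rest, and the remaining controls stood just above the A20-overexpressing libraries. Within the 3 inhibitors, Nfkbia made up 58.1%, 68.0% and 58.6% in the controls and 58.4%, 53.9% and 47.6% with A20 overexpression, and Nfkbib 38.1%, 26.6% and 35.1% against 36.0%, 40.0% and 44.2%. These ratios carry no test, since the genes were chosen with results known.

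Genes of the family overlap other genes, and the strand setting of the counting is not given in the sources used here. Ikbkg (chromosome X, 74393290 to 74453854, plus strand) shares 418 exonic bases with G6pdx on the opposite strand, which stood at 56.2 to 109 CPM over the libraries. Nfkbib (chromosome 7, 28758251 to 28767512, minus strand) shares 42 exonic bases with Sirt2 and 314 with Ccer2, which had no count in any library. Nfkb2 (chromosome 19, 46304737 to 46312090, plus strand) shares 299 exonic bases with Psd, at 14.3 to 27.6 CPM, and 531 with a noncoding RNA at its promoter, in GENCODE M21, where the ends of Nfkb2 differ from the deposited ones. Reads in these stretches could not be assigned to one strand here. Nfkbia (chromosome 12, 55489410 to 55492647, minus strand), Relb (chromosome 7, 19606217 to 19629438, minus strand), Rela (chromosome 19, 5637483 to 5648130, plus strand), Rel (chromosome 11, 23736847 to 23770970, minus strand) and Nfkbie (chromosome 17, 45555703 to 45563169, plus strand) overlap no other gene in that annotation. All positions are on GRCm38.

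The upstream sequences of Nfkbia, Nfkb2, Rel and Nfkbie are shown because these members hold a match to kappa B, the consensus of sites bound by NF-kB. That of Nfkbia is given whole because its groups did not overlap. The 250 bases before each transcription start were read from the RefSeq promoter table (GRCm38.p6), which had entries for 7 of the 10 genes. They were searched on both strands for the 10-base kappa B consensus, in which overlapping matches are possible. Of the 7 genes, 4 had a match in any of their windows, where 4.46% of all 27025 genes in the table and 3.9% of its windows had one. The windows of Rela, Nfkbib and Ikbkg held no match. The 250 bases before the start of Nfkbia, at chr12:55492648-55492897 on the minus strand, are given 5′ to 3′ with the match in capitals, 29 to 20 bases before the start:
Nfkbia: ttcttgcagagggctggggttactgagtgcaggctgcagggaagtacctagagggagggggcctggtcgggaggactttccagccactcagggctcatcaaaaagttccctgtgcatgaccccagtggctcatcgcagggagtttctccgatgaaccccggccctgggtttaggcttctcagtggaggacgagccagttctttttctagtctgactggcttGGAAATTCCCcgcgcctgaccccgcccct
The matches of the other genes are given with up to 10 bases on either side, in the direction of the gene. Those of Rel (chr11:23771052-23771061) and of Nfkb2 near its first start (chr19:46304698-46304707) match on both strands and have a further match shifted by 1 base; another Nfkb2 match lies at chr19:46304726-46304735, one before its other starts at chr19:46305705-46305714, and that of Nfkbie at chr17:45555594-45555603:
Rel: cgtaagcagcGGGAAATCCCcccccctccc
Nfkb2 near the first start: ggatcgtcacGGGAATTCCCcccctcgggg
Nfkb2 at the first start: ggggccgaaaGGGGCTTTCCc
Nfkb2 before the later starts: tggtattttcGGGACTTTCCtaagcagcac
Nfkbie: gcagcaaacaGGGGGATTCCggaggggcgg
A further Nfkb2 match at chr19:46305459-46305468 is not printed. A match is a stretch of letters, not a measured binding site. The log2 fold changes of the genes with a match, none past the test, were -0.66 for Nfkbia, -0.16 for Rel, -0.06 for Nfkbie and 0.08 for Nfkb2 with 6 libraries.

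The genes nearest in pattern to the 3 most variable members were named by the root-mean-square difference of log2 CPM profiles, each centred on its mean over the 6 libraries, among 9698 protein-coding genes at 5 CPM or more. Nfkbia was closest to Prkag1, a subunit of AMP-activated kinase (0.067), Stxbp3 (0.081) and Oard1 (0.100). Stxbp3 stood at 81.8, 49.2 and 53.5 CPM in the controls and 45.0, 41.6 and 38.7 CPM with A20 overexpression, highest in control replicate 1 and lowest with A20 overexpression as Nfkbia was. Nfkbib was closest to Rsad1 (0.084), Crocc (0.088) and the transcription factor gene Stat5a (0.092), and Relb to Nsun6 (0.137), D10Wsu102e (0.139) and Gapdh (0.148). Stat5a stood at 30.3, 10.6 and 18.9 CPM in the controls and 17.5, 16.7 and 17.7 CPM with A20 overexpression. Gapdh stood at only 17.1 to 39.2 CPM, and its reads can be shared with many near-identical copies.

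Other genes of the pathway were followed in 6 lists, all with 0 members past edgeR's test with 6 libraries. Of 10 IKK-complex and upstream kinase genes, 0 passed without control replicate 1 as well (median log2 fold change -0.03, against -0.003 over all genes); Tab2, an adaptor of the kinase TAK1 and the most abundant, stood at 244 to 302 CPM in the controls and 291 to 345 CPM with A20 overexpression (adjusted p = 0.497). Of 17 receptor adaptors and ubiquitin ligases tested, 1 rose, 1 fell and 15 did not pass (median 0.13) without control replicate 1. Over all genes 1.92% rose and 2.68% fell in that fit. Rbck1, of the linear ubiquitin ligase whose chains NEMO binds, rose from 110, 84.5 and 104 CPM to 156, 156 and 164 CPM. Birc2, the ubiquitin ligase cIAP1, which also keeps the non-canonical kinase NIK low, fell from 109, 108 and 97.2 CPM to 74.9, 64.3 and 59.5 CPM. The groups did not overlap for either gene, as for 16.9% of all genes with 6 libraries and 37.9% with 5. The adjusted p values of Rbck1 and Birc2 in edgeR were 0.00939 and 0.0168 with 5 libraries and 0.207 and 0.263 with 6. With 6 libraries DESeq2 called both (adjusted p = 0.00181 and 0.0443). The calls of edgeR were lost when any A20-overexpressing replicate was left out beside control replicate 1, with edgeR's adjusted p at 0.0505 to 0.0631 for Rbck1 and 0.0517 to 0.13 for Birc2, and that of Birc2 also without control replicates 1 and 2 (0.051). The log2 fold changes without an A20-overexpressing replicate stayed at 0.70 to 0.74 for Rbck1, against 0.72, and at -0.76 to -0.59 for Birc2, against -0.67.

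Among 14 negative regulators beside the IkB proteins (median -0.05), only Tnfaip3, the gene overexpressed here, passed without control replicate 1, rising 2.84-fold. Its rise is a check of the labels, and the other 13 did not pass. The atypical nuclear IkB genes tested, Nfkbiz and one other, gave 0 of 2; Nfkbiz stood at 62.2 to 78.1 CPM in the controls and 67.2 to 75.2 CPM with A20 overexpression (adjusted p = 0.921). Of 8 genes of IkB and precursor degradation 0 passed (median 0.01), and the most abundant, the segregase gene Vcp, stood at 359 CPM in control replicate 1 and 167 to 213 CPM in the other 5 libraries.

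In edgeR, NF-kB target genes passed the test without control replicate 1 but not with all 6 libraries. Of 41 listed, 25 were tested. Without control replicate 1 there were 4 lower, 1 higher and 20 not past (median -0.01). Over all genes 2.68% were lower and 1.92% higher. The list was chosen with earlier results of these data known. Complement C3, the chemokine gene Cxcl1 and the gelatinase gene Mmp9 had the smallest adjusted p. C3 stood at 149 and 284 CPM in control replicates 2 and 3 and at 68.3, 69.2 and 88.6 CPM with A20 overexpression (log2 fold change -1.54, adjusted p = 0.0016 in edgeR), but at 22.2 CPM in control replicate 1, below all other libraries. With 6 libraries its log2 fold change was -1.04 (adjusted p = 0.642), and it was -0.23 without control replicate 3 and -0.38 in limma-voom. Mmp9 was scarce, at 0.717, 0.976 and 2.75 CPM in the controls and 0.236, 0.0639 and 0.132 CPM with A20 overexpression; A20-overexpressing replicates 2 and 3 lay under the level of 3 counts, so the size of its fold change is uncertain. Cxcl1 stood at 13.6, 6.20 and 9.10 CPM in the controls and 2.90, 1.21 and 2.58 CPM with A20 overexpression, and was lower in each A20-overexpressing library than in each control (with 6 libraries, log2 fold change -2.07 ± 0.43 (SE), adjusted p = 0.216 in edgeR and 0.000752 in DESeq2). With 6 libraries 9.27% of all genes were lower without overlap, and 16.9% did not overlap in either direction. The collagenase gene Mmp13 fell from 81.1 and 82.1 CPM to 57.5, 45.6 and 53.0 CPM (adjusted p = 0.0138) but stood at 21.8 CPM in control replicate 1, and Ptgs2, the prostaglandin synthase COX-2, was the target that rose, from 24.6, 29.6 and 29.2 CPM to 51.8, 40.6 and 45.4 CPM (adjusted p = 0.041 without control replicate 1, 0.298 with it). Ptgs2 was higher in each A20-overexpressing library than in each control. Mmp13 and Ptgs2 lay outside the naming rule and were added after their values were seen. Beside control replicate 1, leaving out any A20-overexpressing replicate ended the calls of Mmp13 (edgeR's adjusted p 0.0517 to 0.0798) and Ptgs2 (0.075 to 0.193). Leaving out A20-overexpressing replicate 2 ended those of Cxcl1 (0.0616) and Mmp9 (0.0668), and leaving out control replicate 3 that of Mmp9 (0.113). The targets Icam1, at 8.53 CPM, Il15, at 1.95 CPM, and Ccl5, at 4.89 CPM, had reads almost wholly in control replicate 1, the others holding at most 0.0697, 0 and 0.349 CPM. Tnf, Il1b, Csf2 and Cxcl2 had no count in any library. A kappa B match was found before the start of 10 of 29 target genes in the promoter table, against 4.46% of all genes; of the called targets in that table Cxcl1 had one, and C3, Mmp13 and Ptgs2 had none in this window.

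**Figure D4:**
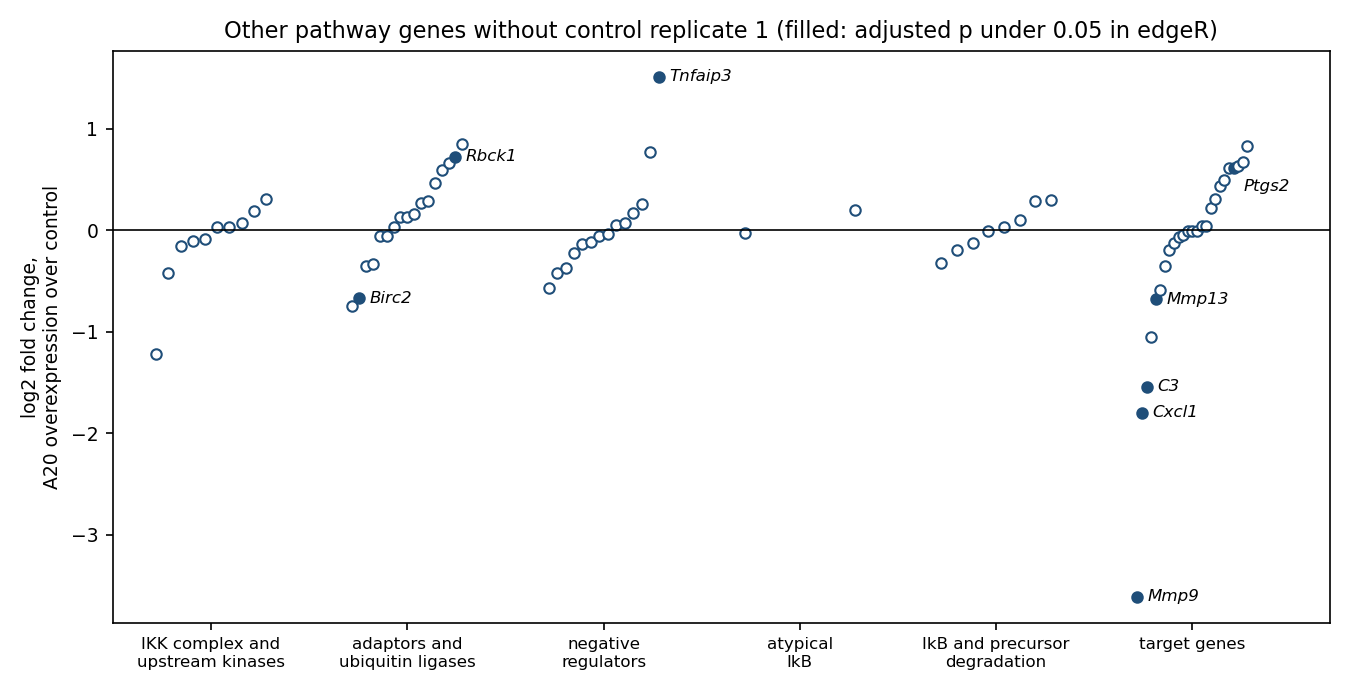
Log2 fold change of A20 overexpression over control without control replicate 1 (vertical axis) for the tested genes of the 6 pathway lists, each circle a gene, filled where edgeR's adjusted p was under 0.05. Filled circles are Tnfaip3 (the gene overexpressed), Rbck1 and Ptgs2 above 0 and Birc2, Mmp13, C3, Cxcl1 and Mmp9 below, where the value of Mmp9 rests on few reads.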

How the data were processed

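The deposited table gives whole-number counts per gene. The build is GRCm38 (mm10) per the submitters' processing notes, and the aligner, counter and strand setting are not given in the sources used here. The deposited FPKM values, which the authors scaled by gene length and library size, served only as an alternative for the order of levels. CPM used the library total. Groups were compared with edgeR 4.0.16 in R 4.3.3 (quasi-likelihood, TMM factors, default low-count filter, robust dispersion); p-values were adjusted by Benjamini-Hochberg across every gene tested, with a threshold of 0.05. The SE is the log2 fold change divided by the square root of F. Alternatives used limma 3.58.1 and DESeq2 1.42.0. GENCODE M21 gave transcripts and overlaps, and RefSeq gave promoters. The procedure was tested on simulated counts. A gene with no count could lie at up to 0.177 to 0.217 CPM (3 counts), which covers counting error only. The genes and lists were chosen with earlier results of these data known. The members are all named, and from each list up to 3 genes past the threshold in either fit, smallest adjusted p first, or else the most abundant. Protein sequences were not used here.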

Additional observations from a re-analysis of the deposited data

How the results depend on the processing

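The 10 genes kept their side of the threshold in each other setting tried, 13 with 6 libraries and 12 without control replicate 1, except Relb with control replicates 1 and 2 left out (1 of 10 called, against 0 in each other fit). With 6 libraries, upper-quartile factors, library size alone and limma-voom called 0 of all genes. So did leaving out any 1 library other than control replicate 1. In those settings 0 of the 10 follows from 0 of all genes and is not particular to the 10. Nfkbia (-0.74 to -0.47 with 6 libraries, -0.54 to -0.37 with 5), Relb (-0.80 to -0.42 and -0.95 to -0.14), Nfkb1 and Ikbkg kept their sign in all settings. Leaving out each library in turn from 6 gave log2 fold changes of -0.13 to 0.32 for Nfkb2, -0.49 to 0.12 for Nfkbib, -0.03 to 0.31 for Ikbkb, -0.29 to 0.05 for Rel and -0.18 to 0.12 for Nfkbie. Outside the 10 genes it gave -0.03 to 0.17 for Nfkbiz, -0.42 to 0.1 for Vcp and -0.68 to 0.05 for Mmp13, and limma-voom gave 0.01 for Mmp13. Leaving out 1 further library beside control replicate 1 gave -0.09 to 0.37 for Rela, -0.46 to 0.20 for Rel, -0.26 to 0.03 for Nfkb2, -0.20 to 0.52 for Nfkbib, -0.32 to 0.25 for Nfkbie, -0.12 to 0.07 for Ikbkb, -0.15 to 0.09 for Nfkbiz and -0.0032 to 0.22 for Vcp; library size alone gave 4.5e-05 for Ikbkb. The cause of these sign changes was not tested.

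The number of genes called with 6 libraries was 2, against 23 without the filter and 183 with DESeq2. It was 0 with upper-quartile factors, library size alone or limma-voom. With 1 library left out it was 628 without control replicate 1 and 0 in each other case. Without control replicate 1 it was 628, 1173 without the filter, and 142 to 2422 with 1 further library left out. With the replicate number as a block, 3 genes were called with 6 libraries and 797 with 5, 0 of the 10 in both; Nfkbie then stood at 0.06 with 5 libraries, and Ptgs2 lost its call (0.52, adjusted p = 0.152). Same-numbered libraries share only a number: their deviations from the group means correlated at 0.0257, 0.115 and -0.0384 across 13350 genes, which are not independent. Of the 6 libraries, not all correlated best with their own number (control replicate 1 and A20-overexpressing replicate 3: 0.162). Depth limits Nfkbie most, at 27 to 43 reads per library.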
